A study of Mus musculus with 12 samples.

Results

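The translation landscape of wild-type mouse embryos was described from ribosome profiling and RNA-seq of 3 whole Rpl10a +/+ embryos at E8.5, when the body axis is elongating and the first somites form. Each embryo gave 1 library of ribosome-protected fragments (RPFs, the stretches of mRNA shielded by a ribosome from RNase) and 1 library of total RNA from the same lysate, so that 6 of the 12 libraries of the series are used. The other 6 come from 3 Rpl10a LOF/LOF embryos and were not used here. The embryos were of the C57BL/6 background, their sex was not determined, and nothing in the labels ties them to a litter. Embryos 1, 2 and 3 are named after the replicate numbers in the labels, and both libraries of a number come from the same embryo.

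A transcript was kept when it lay above 0.75 counts per 1000000 counts of the library (CPM) in all 3 RPF libraries or above 5 CPM in all 3 RNA libraries. Of 22467 listed transcripts 12436 passed, 1819 of them through RPF alone and 363 through RNA alone. The kept set held 12274 transcripts with a coding sequence (CDS), 156 without and 6 that GENCODE did not list. RPF counts cover the CDS without its first 15 and last 5 codons, whereas RNA counts cover the entire transcript. The log2 ratio of RPF CPM to RNA CPM therefore compares a transcript's share of footprints with its share of RNA, and it depends on the fraction of a transcript that is coding. For that reason many values are also given per length, with RPF counts divided by the countable CDS and RNA counts by the transcript length, relative to the median coding transcript.

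Ribosome profiling reads out where ribosomes sit on mRNA at the moment of lysis, and the ratio of footprints to RNA is widely used as a measure of translation per mRNA. Initiation is usually the slowest step, and it depends on the cap, on structure in the 5′ untranslated region (5′UTR), on upstream start codons that capture scanning subunits and on the bases around the start codon. Classes of mRNA with well-known translational control include the terminal oligopyrimidine (TOP) mRNAs of the translation machinery, the stress-regulated mRNAs with upstream open reading frames and the mRNAs of iron and polyamine metabolism.

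RPF libraries held 8543503 to 10863499 counts and RNA libraries 9132521 to 26561843. Markers of germ layers and early organs were present, with 24 of 24 listed genes kept, among them T, Tbx6, Sox2 and Nkx2-5. Visceral endoderm markers such as Afp were also abundant, with 3487 to 4380 CPM of RNA over 13 genes, and trophoblast markers were low, with 39.5 to 44.2 CPM over 8 genes. The decidual prolactin Prl8a2 reached 33.3 to 75.1 CPM of RNA, and leukocyte markers summed to 42.5 to 49.4 CPM over 14 genes. The part of these cell types in the ratios below was not tested, and in whole embryos fewer cells of a type and less RNA per cell cannot be told apart. At the RPF threshold, Zfp119b (lowest library 0.82 CPM) was just inside and Napsa (0.74 CPM) just outside. At the RNA threshold, Svip (5.01 CPM) was just inside and Mturn (4.96 CPM) just outside.

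The ratio spanned a wide range among coding transcripts, and the 3 embryos gave nearly the same ranking. The median log2 ratio was −0.30 and the 5th and 95th percentiles were −2.88 and 1.09, a 15.7-fold span. In embryos 1, 2 and 3 that span was 16.1-fold, 16.4-fold and 15.2-fold. Over the 11632 coding transcripts with at least 10 counts in each of the 6 libraries, the SD between transcripts was 1.13 and the median SD between embryos 0.116. The Spearman correlation of the ratio between pairs of embryos over these transcripts was 0.964 to 0.966, and that between mean RPF and mean RNA levels was 0.849. These describe transcripts of the same libraries, which are not independent replicates. The SD between embryos shrank with depth, from a median of 0.273 at a mean of 10 to 50 RPF counts to 0.0594 at 1000 or more.

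The tail was longer on the poorly loaded side. At log2 ratios of 1 or more stood 6.84% of coding transcripts, and at −1 or less 28.7%. The size of this asymmetry rests on the scaling: relative to the median coding transcript the shares were 14.7% and 22.2%. Footprints were also more concentrated than RNA. The 10 leading transcripts held 6.44 to 6.79% of RPF counts but 3.84 to 4.45% of RNA counts.

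**Figure D1:**
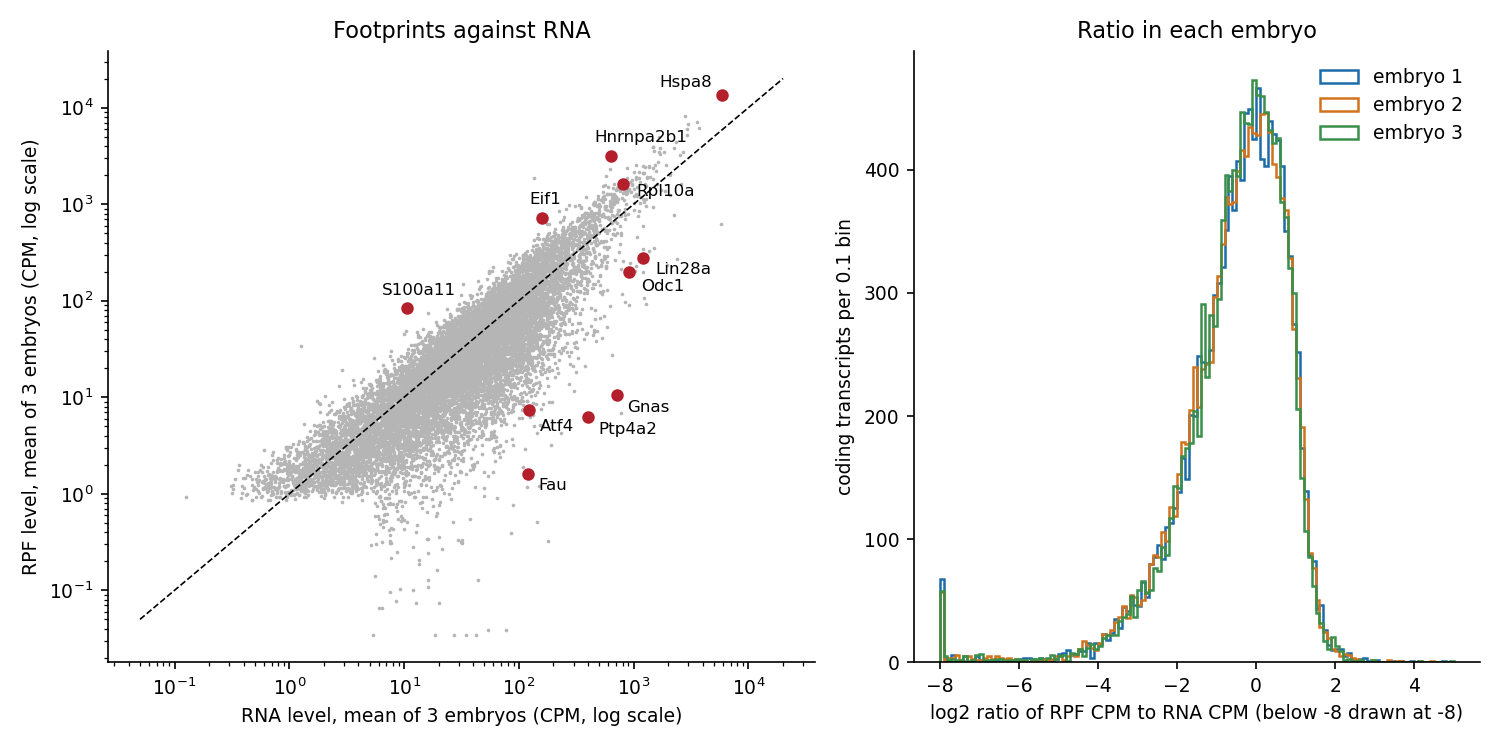
Left, mean RPF CPM against mean RNA CPM of coding transcripts kept, both axes logarithmic, with equal shares on the dashed line and 11 named transcripts in red; transcripts without a count on either side are not drawn. Right, the number of coding transcripts in each 0.1 bin of the log2 ratio in embryos 1, 2 and 3, where the 3 outlines lie on top of each other around medians of −0.29, −0.32 and −0.30.

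In edgeR's quasi-likelihood test of the 3 RPF against the 3 RNA libraries, at a Benjamini-Hochberg FDR below 0.1, 3888 transcripts had a higher share of footprints than of RNA (31.3% of those tested) and 6752 a lower share (54.3%). The p-values measure the spread among the 3 libraries of each kind. This fit does not pair the RPF and the RNA library of an embryo. With a fitted log2 ratio of 1 or more as well, 829 were higher (6.67%), and with −1 or less 3691 were lower (29.7%). The count of lower calls includes transcripts without an annotated CDS, of which 155 of 156 have no RPF count. The split rests on the scaling: TMM over the 6 libraries together gave 5101 higher and 5612 lower, and RLE size factors gave 5219 and 5500, as these scalings moved the median coding transcript from −0.30 to −0.03 and 0.00. Gene lists are therefore given relative to the median coding transcript of each embryo, which no scaling changes.

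Sequence shared with another transcript went with a low ratio. For each coding transcript the 28-letter words of the countable CDS were looked up in all other listed transcripts. The median relative log2 ratio was 0.02 for the 11722 transcripts with under 10% shared words, 0.09 for 291 with 10 to 49%, −0.96 for 160 with 50 to 89% and −6.08 for 100 with 90% or more. Rpl13a, a large subunit protein, had 0 RPF counts in all 3 embryos beside 1223, 3638 and 3025 RNA counts, and all of its CDS words recur in another listed transcript. The listed transcript that shares most with it is Gm45713. A shared word of 28 bases is shown for Rpl13a and the processed pseudogene Rpl13a-ps1, which holds only some of these words (GRCm38, both on the minus strand, chr7:45127511-45127538 and chr19:50030663-50030690).

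Rpl13a and Rpl13a-ps1: cttggccgcctggcggccattgtggcca

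How reads that fit several transcripts were counted is not given in the sources used here. Values of transcripts with much shared sequence, among them Gapdh (91.9%), Ftl1 (87.9%), Oaz1 (90.7%), Tuba1b and most replication-dependent histones, are thus not read below as ribosome loading. In all, 79 coding transcripts had no RPF count in any embryo.

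**Figure D2:**
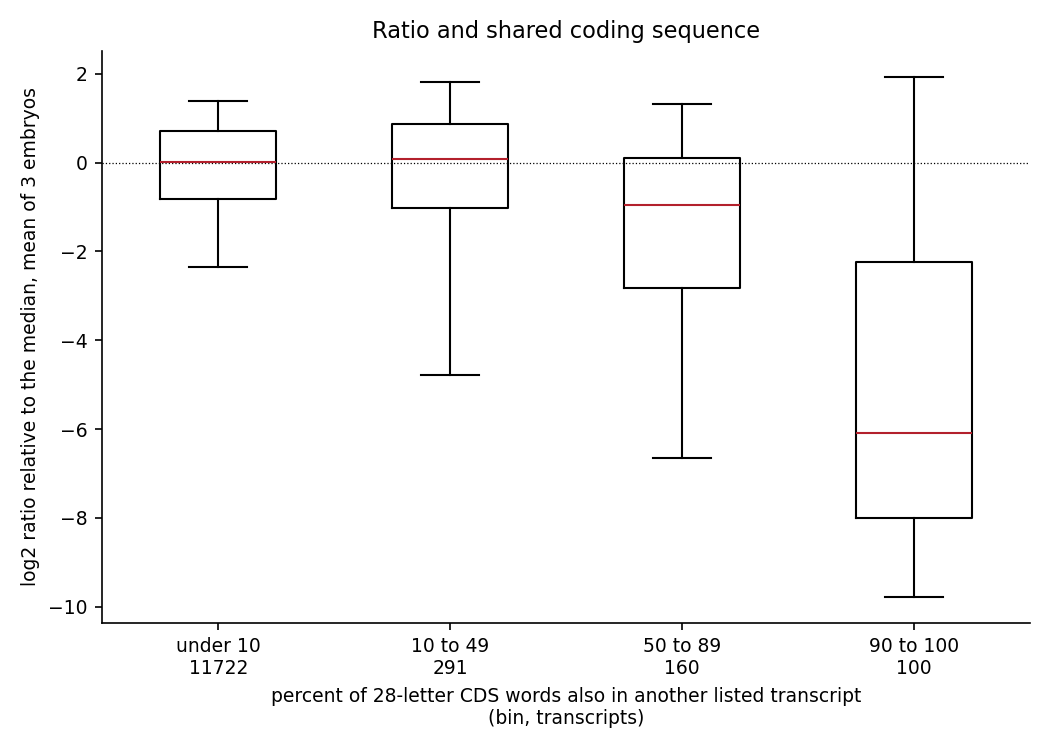
Log2 ratio relative to the median coding transcript (mean of 3 embryos) by the percentage of 28-letter CDS words that another listed transcript also holds, with the number of transcripts under each bin. Boxes span the 25th to 75th percentiles with the median in red and whiskers the 5th to 95th; the median falls from 0.02 in the first bin to −6.08 in the last.

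Among coding transcripts with at least 10 counts in each library, the highest included S100a11 and Hnrnpa2b1. Hnrnpa2b1, an RNA-binding protein that regulates splicing, had 33039, 26674 and 30923 RPF counts beside 5739, 16820 and 13856 RNA counts. Its log2 ratios were 2.27, 2.30 and 2.31 (fitted 2.30, adjusted p = 3.95e-13) and differed little between embryos, and per length it also lay at 2.30, relative to the median.

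S100a11, a calcium-binding protein, had 924, 729 and 808 RPF counts beside 93, 291 and 232 RNA counts, with ratios of 3.06, 2.96 and 2.95 (fitted 2.98, adjusted p = 1.15e-12) and 3.33 per length. The next were small in RNA, with Rtl8c at 11, 47 and 49 RNA counts (mean ratio 2.39), Nccrp1 at 15, 56 and 51 (2.31), Prr36 at 22, 104 and 40 (2.30) and Esx1, a homeobox gene of the placenta, at 19, 39 and 40 (2.22). Gzmf, a granzyme of uterine natural killer cells, had a mean ratio of 2.24. The RPF counts behind these 5 were between 58 and 292 in a library. None of the 5 lay above 5 CPM in all 3 RNA libraries, so they were kept through RPF alone, the side on which they are high, and their place among the highest ratios is partly set by the filter. Hist1h2af and Hist1h2an also ranked here at 4.72 and 2.77, with 90.4% and 89.8% shared CDS words.

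Per length the leading transcripts included Hist1h2af, Minos1 (4.11 relative to the median), D10Wsu102e (4.10), Ndufab1 (4.09), Sh3bgrl2, Sf3b5, Mrpl17, Snrpd3 and Hnrnpd (3.89). Several have a short CDS on a long annotated transcript: D10Wsu102e has a CDS of 555 bases and an annotated 3′UTR of 122586. Its plain log2 ratio was −3.07, so the 2 scales place it at opposite ends. The shared histone Hist1h2af was in the leading 10 of both scales.

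The mRNAs with the most footprints encode chaperones, elongation factors and other abundant proteins. Hspa8, a constitutive HSP70, led with 12495, 13648 and 14019 CPM of RPF and ratios of 1.12, 1.29 and 1.16 (fitted 1.19, adjusted p = 4.46e-10). Behind it came Hsp90ab1 (mean ratio 1.56), Pkm (1.02), Hsp90aa1 (1.18), Eef1a1 (0.73), Npm1 (1.04), Eef2 (0.85), Ncl (1.58), Tubb5 (0.90) and Hspa5 (1.41). All 10 were called higher, beside 31.3% of all transcripts, but they were chosen for their RPF counts, which favours such a call, so nothing is read from it. With a length offset in the fit, which moves the median coding transcript to −0.50, the fitted values of Eef1a1 and Eef2 were −0.12 and −0.14, below 0 but above that median.

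At the other end, 10 transcripts lay at −5.30 or below with at least 10 counts in each library. The transcript listed for Gnas had 104, 92 and 108 RPF counts beside 6394, 19152 and 15650 RNA counts (ratios −6.19, −6.06 and −6.02, adjusted p = 6.83e-14). Its annotated CDS of 759 bases is the upstream Nesp frame of this imprinted locus and not that of the stimulatory G protein alpha subunit, whose exons after the first lie in its 1447-base 3′UTR. Footprints on the alpha subunit frame are therefore not in this count while RNA of those exons is, and the value says nothing about loading of the alpha subunit mRNA. Fau, which encodes a ubiquitin-like fusion to a small subunit protein, had 17, 12 and 18 beside 1094, 2903 and 2762 (−6.22, −6.22 and −6.07, adjusted p = 1.14e-12). Ptp4a2, a phosphatase, had 75, 42 and 65 beside 3668, 10734 and 8481 (mean −6.02). These transcripts were chosen by the ratios given here, which are therefore a description.

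The remaining low ones were Gm49394 (−6.83), BC005537 (−5.91), Ppp1r2 (−5.87), Zfp664 (−5.75), Vma21 (−5.40), Slc35a4 (−5.30) and the shared histone Hist1h4j (−6.89). Gm49394 has an annotated CDS of 1038 bases and a 3′UTR of 3644 on a transcript of 4738. Footprints outside that CDS are not in its count while RNA of the entire transcript is. Which frame ribosomes read on this RNA was not tested, so its values are not read as ribosome loading. None of the 9 that are no histone shares more than 8.33% of its CDS words with a listed transcript. Against every transcript of GENCODE, listed or not, the share is 100% for Fau and Vma21, 84.4% for Ppp1r2, 62.9% for Slc35a4, 37.2% for Ptp4a2, 1.29% for Zfp664 and 0 for Gnas, BC005537 and Gm49394. Eif1, Tpt1 and Rpl10a also share 100% and had ratios of 2.18, 0.75 and 0.99. For S100a11 the share is 86.0% and for Odc1 83.6%. Whether those unlisted transcripts were in the alignment reference is not given, and their part in the low values was not tested. Per length, Fau (−6.10), Gm49394 (−5.35), Gnas (−5.06), Slc35a4 (−4.45), Ppp1r16a (−4.38), Zbed4 (−4.29) and Npm3 (−4.26) were lowest, besides 3 histones. Of the names that are added here, Zbed4 shares 96.8% of its words with a GENCODE transcript, Npm3 79.9% and Ppp1r16a 0.27%.

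**Figure D3:**
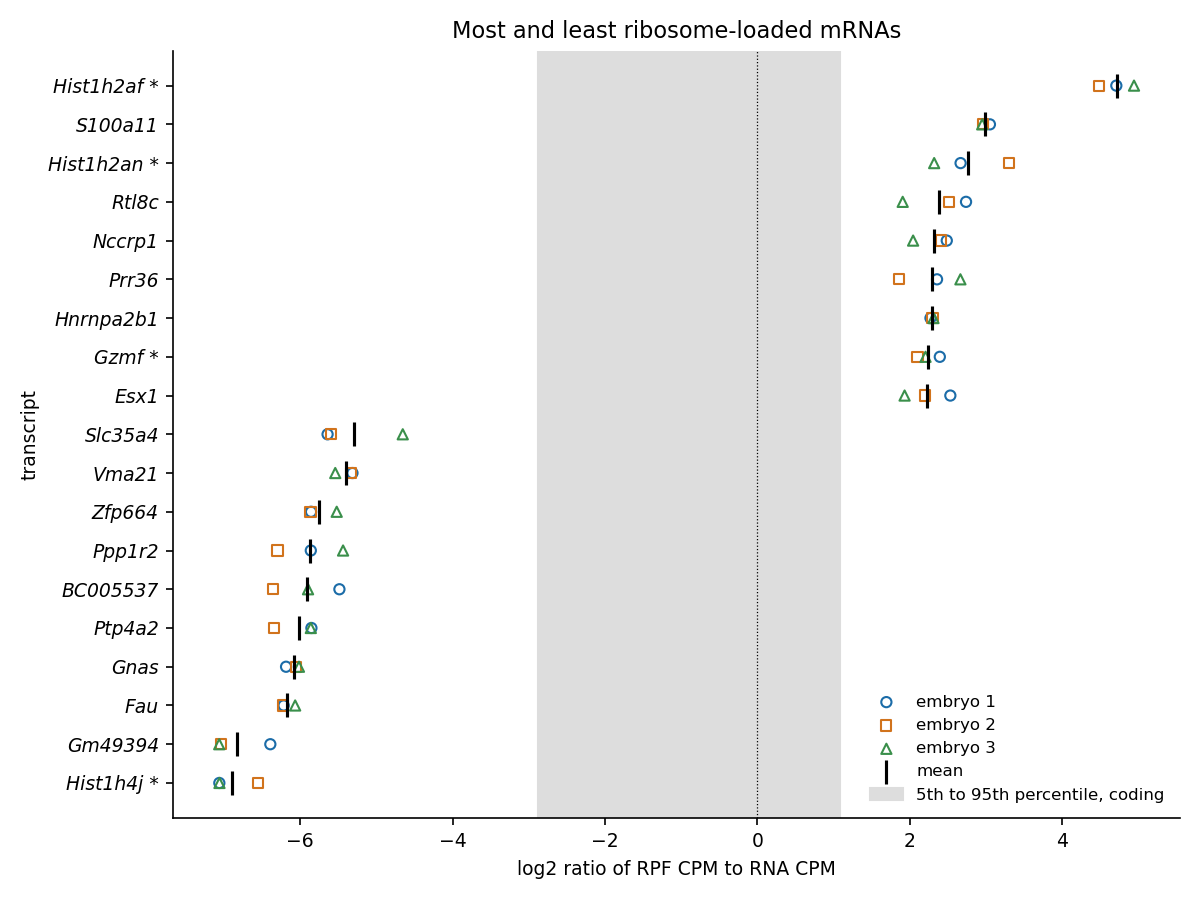
Log2 ratio of RPF to RNA CPM in embryos 1, 2 and 3 (symbols) and their mean (bar) for 9 of the 10 highest and the 10 lowest coding transcripts with at least 10 counts in each library; an asterisk marks 10% or more shared CDS words and the grey band the 5th to 95th percentile of coding transcripts. The highest shown start at 2.22 and the lowest 10 end at −5.30. The SD between embryos ranges from 0.020 for Hnrnpa2b1 to 0.56 for Slc35a4. Both sets were chosen by these ratios.

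Of the 10 lowest transcripts 4 have an upstream ATG in the 5′UTR, against 51.6% of coding transcripts whose 5′UTR has 20 bases or more. In number they hold many: BC005537 has 19, Slc35a4 18, Zfp664 11 and Ptp4a2 6, while of all coding transcripts with such a 5′UTR 306 hold 8 or more and 995 hold 4 to 7. The stress-responsive transcription factor mRNA Atf4 is the textbook case, in which ribosomes translate upstream frames and reach the CDS mainly under stress. It had 67, 67 and 77 RPF counts beside 1112, 3266 and 2699 RNA counts, ratios of −4.29, −3.96 and −3.97 (fitted −4.08, adjusted p = 9.79e-13) and −4.06 per length. The 3 upstream ATGs of its 594-base 5′UTR are shown because the open frames they start differ in length, each with 12 bases before the ATG, which is in capitals, from the GENCODE transcript (GRCm38, plus strand, chr15:80255291-80255320, chr15:80255570-80255599 and, across a splice junction, chr15:80255669-80256219).

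Atf4 upstream ATG 1: cacttttctctcATGgggcctttaggacga

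Atf4 upstream ATG 2: cttgcggccaccATGgcgtattagaggcag

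Atf4 upstream ATG 3: ccggcctaagccATGgcgctcttcacgaaa

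The first frame has 36 codons and the second 3, and both end before the Atf4 start, by 365 and 185 bases. The third has 59 codons and its stop lies 82 bases beyond the start, out of frame with it. Only the end of this overlap was counted as CDS, since the first 15 codons are left out.

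Odc1, ornithine decarboxylase and the first enzyme of polyamine synthesis, had 2067, 1664 and 2012 RPF counts beside 8295, 22907 and 20021 RNA counts. Its ratios of −2.25, −2.15 and −2.16 (fitted −2.19, adjusted p = 3.79e-12) lay close together. The 5′UTR of 489 bases holds 2 upstream ATGs (GRCm38, plus strand, chr12:17544909-17544938 and chr12:17545123-17545152), each with a frame that ends before the CDS, after 8 and 10 codons.

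Odc1 upstream ATG 1: tggtgcgtctccATGacgacgtgctcggcg

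Odc1 upstream ATG 2: ggcggcgcctccATGggtcaggccagccgg

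Across coding transcripts the ratio fell with the number of upstream ATGs. ATG was searched on the sense strand in every frame of 5′UTRs of at least 20 bases, and 6116 of 11843 transcripts held 1 or more. The median relative ratio was 0.32 without an upstream ATG (5727 transcripts), −0.14 with 1 (2737), −0.46 with 2 to 3 (2078), −0.69 with 4 to 7 (995) and −1.04 with 8 or more (306). Transcripts called lower with a log2 ratio of −1 or less made up 17.5% of the first bin and 59.5% of the last, beside 29.7% of all tested. Each embryo showed the same order, and so did the ratio per length, from 0.30 to −0.81. Within 5′UTRs of 100 to under 300 bases, the medians of the bins up to 4 to 7 upstream ATGs were 0.28, −0.15, −0.28 and −0.54. Sf3b5 stood apart, with 43 upstream ATGs in an annotated 5′UTR of 3280 bases and a ratio of 0.47.

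Other features of the transcript went with the ratio as well. The 2376 transcripts with a 5′UTR GC content of 73.6% or more had a median relative ratio of −0.59, against 0.17 for the 2369 below 56.4%. The Spearman correlation over 11843 transcripts was −0.22 with 5′UTR GC, −0.29 with 5′UTR length and −0.31 with the number of upstream ATGs. Over 12274 transcripts it was −0.46 with 3′UTR length and 0.02 with CDS length, and per length it was −0.03 and −0.38, so that each measure followed a different length. With RNA level it was −0.09. These features overlap: the median 5′UTR was 117 bases long without an upstream ATG and 769.5 with 8 or more.

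The bases around the start ATG made a smaller difference. A purine 3 bases before the ATG and a G just after it, the favoured context of scanning, were both present in 46.0% of 12078 transcripts, with a median relative ratio of 0.08. It was −0.05 for the 5791 transcripts with either and −0.31 for the 734 with neither. Without any upstream ATG the same medians were 0.35, 0.30 and 0.15. Eif1, the initiation factor that enforces start codon choice and whose own ATG lies in a poor context, went against this order. It had neither favoured base, yet its ratios of 2.14, 2.08 and 2.31 (fitted 2.17, adjusted p = 7.20e-11) were the highest of the initiation factors. The start regions of Eif1 and Atf4 are shown for comparison, with the ATG and the bases 3 before and directly after it in capitals (GRCm38, plus strand, chr11:100320118-100320147 and chr15:80256287-80256316).

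Eif1 start: gaatcgtatCgtATGTccgctatccagaac

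Atf4 start: aagccccacAacATGAccgagatgagcttc

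**Figure D4:**
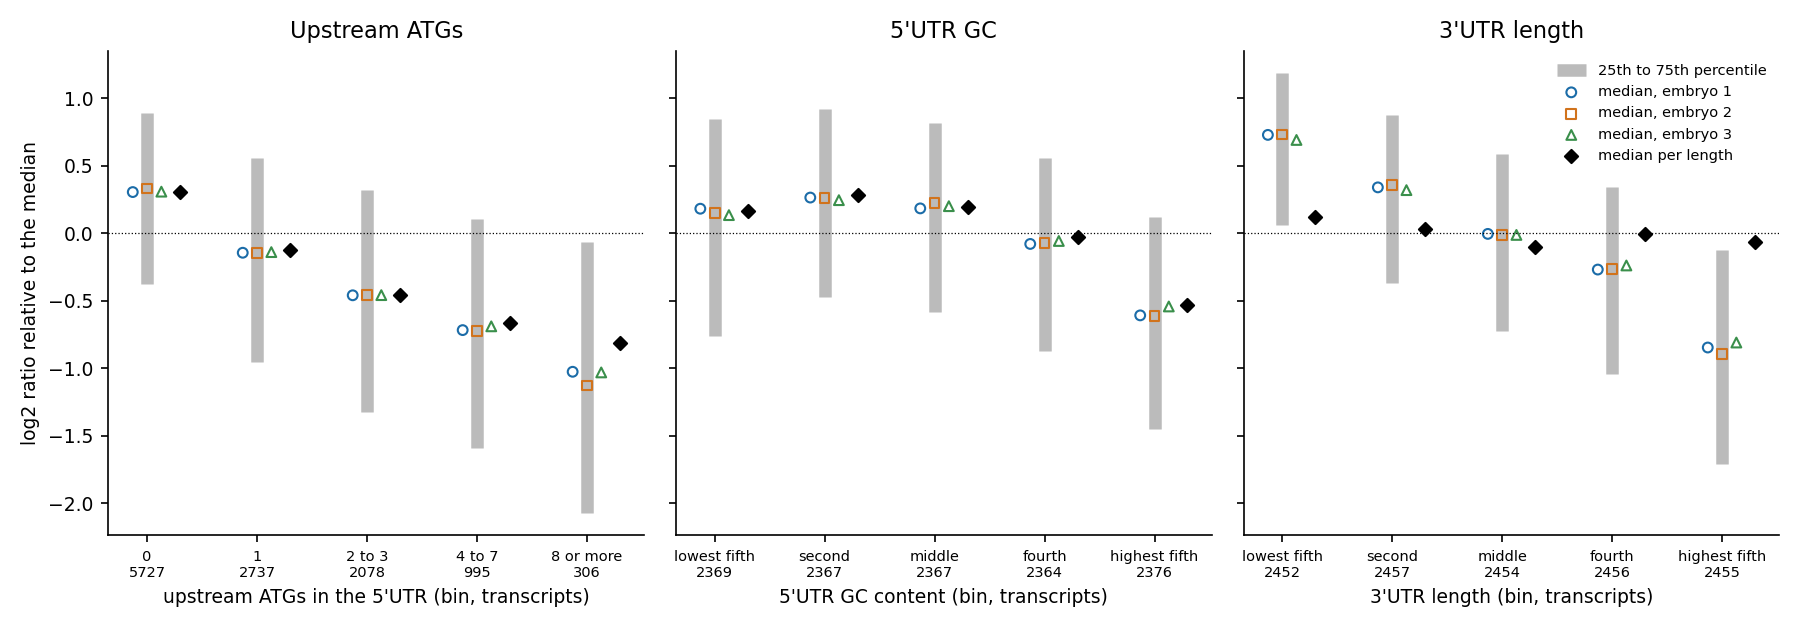
Log2 ratio relative to the median coding transcript (vertical axis) in bins of upstream ATG number, 5′UTR GC content and 3′UTR length, with the transcripts per bin; symbols are the medians of embryos 1, 2 and 3, grey bars the 25th to 75th percentiles of the mean and diamonds the medians per length. With upstream ATGs the medians fall from 0.32 to −1.04, and per length from 0.30 to −0.81, while the fall with 3′UTR length is not seen per length.

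Beside 31.3% of all transcripts called higher and 54.3% called lower, 28 of 46 kept large subunit ribosomal proteins were called higher and 16 lower, with a median relative ratio of 0.84 ± 0.06 (the median of the members' mean over embryos, with the SD of the medians taken in each embryo, which need not surround it), and of 32 small subunit proteins 20 and 8, at 0.65 ± 0.07. Per length the medians were 0.50 and 0.38. Rpl27 was highest at log2 ratios of 1.29, 1.39 and 1.28, and Rpl10a, the gene targeted in the other embryos of the series, had 0.93, 1.06 and 0.99 (adjusted p = 7.57e-10). Sequence sharing touches these lists: over the 28 large and 23 small subunit mRNAs with under 10% shared words the medians were 0.99 and 0.81. Rps12 is an exception with no shared words among listed transcripts, 0 RPF counts in each embryo and 115, 422 and 366 RNA counts.

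Elongation factors and other TOP mRNAs had a median of 1.06 ± 0.07 (12 of 15 called higher, 2 lower, beside 31.3% and 54.3% of all) with embryo medians of 1.06 in embryo 1, 1.12 in embryo 3 and a higher one in embryo 2, led by the nucleosome chaperone Nap1l1 at 1.53, 1.35 and 1.47. Initiation factors had medians of 0.94, 0.91 and 0.93 in the 3 embryos and 0.99 over the members' means (23 of 37 higher, 13 lower). Per length these lists lay at 0.57 and 0.51. Hnrnpa1 was lowest of the TOP list at −3.10, on a transcript typed as nonsense-mediated decay with 70% shared words. Pabpc1, the poly(A)-binding protein with a well-known TOP start, did not pass the test at 0.15, −0.09 and 0.11 (adjusted p = 0.49).

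A TOP mRNA begins with C followed by an unbroken run of pyrimidines. Annotated starts with C and at least 5 pyrimidines were found in 2.36% of coding transcripts, with a median relative ratio of 0.08. Among the ribosomal protein and TOP lists combined, 11 of 93 transcripts (11.8%) had such an annotated start, with a median of 0.70 against 0.87 for the other 82. The 3 of these with the most footprints are shown (GRCm38, chr9:64173375-64173394 and chr11:48800360-48800379 on the plus strand and chr15:36608954-36608973 on the minus strand), with the pyrimidine run in capitals.

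Rpl4: CTTTTCCTgtgggagcagcc

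Rack1: CTTTTTCTCCacagggtcgt

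Pabpc1: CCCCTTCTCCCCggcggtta

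All 31 proteasome subunits were called higher, beside 31.3% of all transcripts, with a median of 1.37 ± 0.05, from Psmd8 (0.21, 0.18 and 0.13) to Psmc2 (1.68, 1.65 and 1.62). All 18 glycolytic enzymes were called higher, at 1.25 ± 0.03, with Pfkl lowest at 0.32, and the median over the 15 with under 10% shared words, which leaves out Gapdh, was 1.23. Of 22 chaperones 20 were higher, at 1.30 ± 0.04, and together they took 5.95 ± 0.12% of RPF counts against 2.71% of RNA counts. The disulfide isomerase Pdia3 led them at 1.86, 1.81 and 1.96, and the prolyl isomerase Ppia was lowest at −4.72, −4.11 and −4.84. Sequence that Ppia shares with GENCODE transcripts that are not listed was not looked up. All 24 collagens and matrix proteins were higher, at 1.11 ± 0.05, with the collagen-binding glycoprotein Sparc at 1.63, 1.71 and 1.61. Per length these 4 lists stayed above the median, at 0.83, 0.88, 0.86 and 0.35. With a length offset in the fit, which moves the median coding transcript to −0.50, Psmd8 (−0.49), Pfkl (−0.26) and the collagen Col4a5 (−0.76) turned to lower calls.

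Mitochondrial genes split by genome. The 13 mRNAs made inside mitochondria were all called lower, beside 54.3% of all transcripts, with a median relative ratio of −2.03 ± 0.26 and −2.87 per length. mt-Nd1 was lowest at −3.33, −3.38 and −3.90, and mt-Nd4l highest at −0.39, −0.28 and −0.43. Mitochondria have their own ribosomes, which cycloheximide does not arrest, and how well their footprints were recovered was not tested. Nuclear genes of oxidative phosphorylation had a median of 0.95 ± 0.06 (62 of 75 higher, 10 lower), and mitochondrial ribosomal proteins 0.62 ± 0.05 (48 of 76 higher, 20 lower), both at 0.80 per length, beside 31.3% higher and 54.3% lower over all. Ndufab1, the acyl carrier protein of complex I, was highest of the former at 1.74, 1.81 and 1.80. The medians of embryos 1, 2 and 3 were −1.84, −1.81 and −2.27 for the mitochondrially encoded list and 0.94, 1.02 and 0.89 for the nuclear one.

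**Figure D5:**
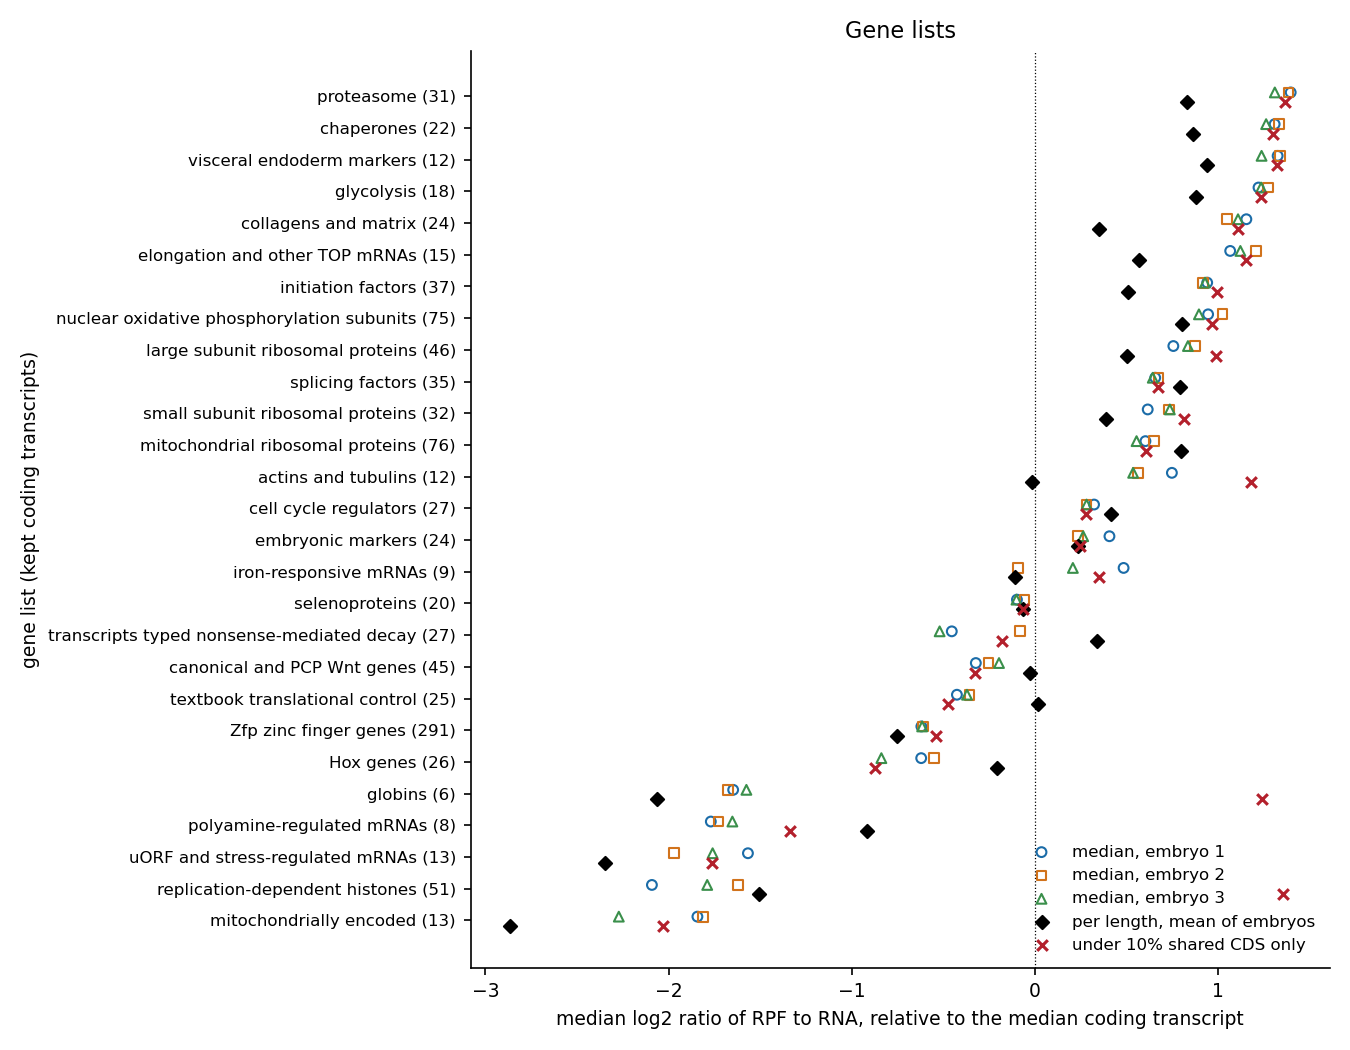
Median log2 ratio relative to the median coding transcript for each gene list with 5 or more kept coding transcripts, in embryos 1, 2 and 3; diamonds give the median per length and crosses the median over transcripts with under 10% shared CDS words. Proteasome and chaperones lie at the top and the mitochondrially encoded list at the bottom, and for histones and globins the cross lies on the other side of 0.

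Hox, Wnt and Zfp genes had medians below that of coding transcripts. Of 26 kept Hox genes, the transcription factors of axial identity, 5 were called higher and 18 lower, beside 31.3% and 54.3% of all transcripts, with a median of −0.74 ± 0.15 but −0.21 per length. Hoxb3 was lowest at −3.33, −3.60 and −3.41 with 17 to 25 RPF counts, and Hoxb5 highest at 0.68, 0.71 and 0.63. Of 45 genes of canonical and planar cell polarity Wnt signalling 7 were higher and 29 lower, beside 31.3% and 54.3% of all, at −0.33 (−0.32, −0.25 and −0.20 in embryos 1, 2 and 3) and −0.03 per length. The receptor Fzd3, with 10 upstream ATGs and a 3′UTR of 10273 bases, was lowest at −3.37, −3.41 and −3.12, and −1.38 per length relative to the median. The ligand Wnt1 was highest at 0.59, 1.04 and 1.45.

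Of 291 zinc finger genes named Zfp with a number, 21 were higher and 233 lower, beside 31.3% and 54.3% of all, at −0.63 and −0.76 per length. Of these, 183 had an upstream ATG, beside 51.6% of coding transcripts. Cell cycle regulators were divided, with 11 of 27 higher and 11 lower, from E2f1 (−2.64) to the inhibitor Cdkn1a (1.43). Splicing factors had a median of 0.67 ± 0.02 (22 of 35 higher, 9 lower) and 0.79 per length. Embryonic markers had 9 of 24 higher and 10 lower: the paraxial mesoderm factor Tbx6 was highest at 1.45, 1.65 and 1.43 and Tcf15, a factor of somites, lowest at −3.55, −2.91 and −2.85, while the mesoderm factor T had −1.34, −1.22 and −0.95. Of 12 visceral endoderm markers 11 were higher, at 1.29 ± 0.06 and 0.94 per length, led by Afp at 1.60, 1.57 and 1.48.

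Most mRNAs of the uORF and stress list, which was put together for known repression, had low ratios. Of 13 kept uORF and stress-regulated mRNAs 11 were called lower and 2 higher, beside 54.3% and 31.3% of all, with a median of −1.77 ± 0.20 and −2.35 per length. Atf5 had 6, 5 and 6 RPF counts beside 169, 496 and 426 RNA counts, a mean ratio of −4.90. Ppp1r15a and Ppp1r15b, which direct the dephosphorylation of eIF2, lay at −2.88 and −3.02, and Ifrd1 at −1.66. The 2 called higher were Uchl5, at 0.87, 0.85 and 0.89, and Eprs, a tRNA synthetase, at 0.77, 0.74 and 0.76, and both have no upstream ATG. Eif5, another initiation factor, has 5 upstream ATGs and lay at −1.97, −2.23 and −2.09.

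In polyamine metabolism 7 of 8 were lower, beside 54.3% of all, at −1.72 ± 0.06 and −0.92 per length. Without the shared Oaz1 and Sms, the median over 6 was −1.34 and 5 were lower. Srm, spermidine synthase, had 0.05, 0.04 and 0.03 (adjusted p = 0.43). Azin1, the antizyme inhibitor, lay at −2.05 ± 0.09. In the iron-responsive list, 4 of 9 were higher and 4 lower, among the latter the shared Ftl1, beside 31.3% and 54.3% of all. The median was 0.20 ± 0.29 with −0.11 per length, and 0.35 over the 8 unshared. Fth1, the ferritin heavy chain, whose iron-responsive element binds a repressor when iron is low, had −0.85, −1.03 and −0.74 (adjusted p = 6.63e-07). Tfrc, the transferrin receptor, whose elements lie in the 3′UTR and act on mRNA stability, had 0.43, 0.48 and 0.45 (adjusted p = 1.48e-06). The loop of the Fth1 element is shown in capitals (GRCm38, plus strand, chr19:9982732-9982761). The 5 letters CAGTG alone, searched on the sense strand, occur in 24.1% of 1282 coding 5′UTRs of 200 to under 250 bases, so the letters do not mark the element by themselves.

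Fth1 element: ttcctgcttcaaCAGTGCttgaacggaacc

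Lin28a and Lin28b, RNA-binding proteins of early development, were low at −2.15, −2.16 and −2.02 and at −3.75, −3.66 and −3.61. With 3′UTRs of 2778 and 4448 bases they lay at −0.27 and −1.62 per length relative to the median. Hmga2, with a CDS of 324 bases, was lower in plain counts (−0.98) and above the median per length (2.04). Ccnd1 (−0.69 and 0.70) and Cdkn1b (−0.92 and 1.39) changed sides in the same way. Myc lay at 1.15, 1.36 and 1.25 and Vegfa at 0.59, on listed transcripts with no 5′UTR and 3′UTRs of 3 and 30 bases, and per length relative to the median they were at 0.53 and 0.01. Mdm2 lay at −1.38, Actb at 0.29, Gpx4 at −0.28 and Tpt1 at 0.75. Selenoproteins, which recode a stop codon, were spread around the median (−0.07 ± 0.02, 5 of 20 higher and 12 lower, beside 31.3% and 54.3% of all), from Selenow (−2.30) to Txnrd2 (0.76).

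Lists with much shared sequence changed sides when only unshared members were taken. Of 51 replication-dependent histones 4 had under 10% shared words, and the median went from −1.83 to 1.35. Of 6 globins 3 had, and it went from −1.63 to 1.24. The embryonic globin Hba-x, which is unshared, had 5897, 2857 and 10312 RPF counts beside 2012, 3169 and 11319 RNA counts, so its level differed several-fold between embryos while the ratios were 1.30, 1.49 and 1.02. Actins and tubulins had 0.59 ± 0.12 over 12 and 1.18 over the 4 unshared.

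Noncoding RNAs are described on the RNA side, since footprints were counted in coding sequences. The 156 kept transcripts without a CDS held 1.77 to 2.38% of RNA counts, and 155 of them have 0 RPF counts, which says nothing about ribosomes on them. The exception was 1810032O08Rik with 11, 10 and 22. By type they include 45 lincRNAs, 33 processed transcripts, 24 snoRNAs and 21 antisense RNAs. Rn7sk, the RNA that holds the elongation factor P-TEFb inactive, was the most abundant at 10924, 6587 and 9586 CPM of RNA. Next came the imprinted H19 at 2941, 2603 and 3079 and Rpph1, the RNA of RNase P, at 2477, 1986 and 2550.

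Rny1 (966, 640 and 1154), Rny3 (456, 351 and 657) and Rnu12 of the minor spliceosome (245, 193 and 349) were lowest in embryo 2, as were Rn7sk and Rpph1. By comparison, 2900097C17Rik (595, 619 and 589), Tug1 (318, 315 and 297), Gm13315 (332, 332 and 324) and 1700020I14Rik (292, 293 and 261) varied little. Of 20 snoRNA host genes 11 were kept without a CDS, with Gas5, whose introns carry snoRNAs, highest at 67.9 CPM. Total RNA was purified for longer molecules and reads matching rRNA, tRNA or snRNA had been removed, which bears on the levels of the small RNAs.

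A few mRNAs varied between embryos well beyond the usual spread. Among coding transcripts with at least 50 counts in each library, Itgal, an integrin of leukocytes, had the largest SD (1.89, against a median of 0.116 over transcripts with at least 10 counts). It had 225, 654 and 437 RPF counts beside 203, 161 and 219 RNA counts and ratios of −0.10, 3.66 and 2.15. Ptprc, another leukocyte gene, had 27, 34 and 25 RPF counts beside 15, 46 and 38 RNA counts. The summed leukocyte markers, Itgal included, were 101, 215 and 124 CPM of RPF and 48.4, 49.4 and 42.5 CPM of RNA, and their part in the Itgal value was not tested. Hspb7 (−2.26, 0.25 and 0.04) was lowest in embryo 1, where its RNA reached 40.7 CPM against 10.4 and 9.88 in embryos 2 and 3, and missed the threshold (adjusted p = 0.14). Hist1h4c (SD 0.64) and Dgkk (0.63) also varied.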

How the data were processed

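Whole E8.5 embryos were lysed with cycloheximide and each gave an RPF and a total RNA library. As deposited, the values are raw counts per transcript: the authors removed rRNA, tRNA and snRNA reads, aligned the rest to GRCm38 canonical transcripts, collapsed duplicates by molecular identifier and counted RPF A sites in the CDS (without the first 15 and last 5 codons) and RNA reads over the transcript. All 12 columns matched a sample and 6 were used. Here transcripts were matched to GENCODE M21 (21976 by ID and version, 477 by ID, 14 not).

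Ratios used CPM with 0.5 added to each count. RPF and RNA were compared with edgeR 4.0.16 (quasi-likelihood, R 4.3.3, TMM separately for RPF and RNA, FDR below 0.1). limma 3.58.1 and DESeq2 1.42.0 were alternatives. Counts of a transcript set the precision of its ratio, with 8543503 counts in the shallowest library. No 2 libraries agreed within sampling noise (chi-square per degree of freedom 2.19 to 12.76). Libraries of a number come from 1 embryo: their deviations correlated at 0.229, 0.191 and 0.334, against −0.215 to −0.012 for different embryos.

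Named genes are the 10 highest and lowest by ratio and per length, the 10 with the most RPF, the 10 noncoding with the most RNA, the ends of each list, textbook genes, the 5 most variable and those nearest the thresholds. Ptprc was added after its values were seen. Some transcripts that the rule names are not reported here. Members and lists were chosen with earlier results of these data known. Alternatives changed scaling, filter, pseudocount, length, tool and samples.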

Additional observations from a re-analysis of the deposited data

How the results depend on the processing

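Calls of log2 ratios of 1 or more rose from 829 to 1663 with TMM over the 6 libraries together and 1782 with RLE size factors, and those of −1 or less from 3691 to 6740 without a filter on low counts, where 21211 transcripts were tested. The span from the 5th to the 95th percentile, 3.97, was 3.90 with a pseudocount of 2, 3.82 without one, 3.69 per length, 3.61 with at least 10 counts in each library and 3.74 over unshared CDSs, a setting chosen after seeing the data. Leaving out each embryo in turn gave 3601 to 3758 higher and 6509 to 6606 lower calls. With the replicate block (libraries paired by embryo) 3995 were higher and 6866 lower. DESeq2 called 3588 and 6487.

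A length offset turned the direction of several named transcripts, given here without and then with the replicate block: Eef1a1 −0.116 and −0.117, Eef2 −0.142 and −0.142, Actb −0.151 and −0.151, Ccnd1 0.203 and 0.205, Cdkn1b 0.891 and 0.891, Hmga2 1.54 and 1.55, Pabpc1 −0.632 and −0.626, Vegfa −0.479 and −0.480, D10Wsu102e 3.59 and 3.60, Srm −0.585 and −0.585, Pfkl −0.257 and −0.257, Tubb4b −0.0114 and −0.0124, Psmd8 −0.491 and −0.492, Col4a5 −0.760 and −0.758 and Txnrd2 −0.223 and −0.215. The offset divides by length, so these follow from its construction. Gpx4 was 0.0219 with RLE size factors, which moved the median coding transcript from −0.30 to 0.00. Of 1703 values of 116 named transcripts, 1650 either kept direction and side of the threshold or passed it in neither fit.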
